A study of Homo sapiens with 2 samples.

Results

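SR proteins and heterogeneous nuclear ribonucleoproteins (hnRNPs) are the main families of RNA-binding proteins that steer splice site choice in human cells. Genes were taken by symbol: SRSF followed by a number, or HNRNP followed by letters and digits, with pseudogene names left out. The rule found 37 genes of the 50867 gene entries in the table, 12 SR protein genes and 25 hnRNP genes. HCT116, an established human colorectal carcinoma cell line, received either a control siRNA or an siRNA against PHF5A, and total RNA was sequenced from 1 library of each, 2 in all. PHF5A is a subunit of SF3b, the complex of the U2 small nuclear ribonucleoprotein that holds the branch point of an intron. The labels give neither the siRNA sequence nor the time after transfection, and with a single siRNA its effects on other transcripts cannot be told apart from those of PHF5A loss. There are no replicates, so no test between the conditions was possible, and every interval below is a 95% exact (Clopper-Pearson) interval that covers counting error only.

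SR proteins carry RNA recognition motifs and a tail rich in arginine and serine, bind exonic enhancers and help U1 and U2 components settle on nearby splice sites. hnRNPs coat nascent transcripts and often act from silencer elements, so that the balance of both families shifts alternative exons. Many genes of both families limit their own level through exons or introns that, when included or retained, send the transcript to nonsense-mediated decay (NMD), the pathway that removes messages with an early stop codon.

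The libraries held 26552789 (control) and 25897412 (knockdown) counts. PHF5A itself, on chromosome 22, had 367 control and 91 knockdown counts, which was 3.93-fold lower (interval 3.12 to 5.0) after scaling to the library totals. Entries for 4 kinds of abundant small RNA (7SL, 7SK, RNase P and RNase MRP with their copies) took 17.5% of the control library and 26.2% of the other, while protein-coding genes took 78.4% and 70.2%. The libraries also differed in 21 heart muscle markers, which summed to 101269 control counts (100 to 65612 per gene) and 344 knockdown counts (0 to 229), with 11 of them at 0 in the latter, MYH7, MYH6, PLN and NPPA included. These markers made up 0.381% of the control library and 0.00133% of the other, and their part in the results below was not tested. Of 7 fibroblast markers, 3 of the 4 expressed were at least 2-fold lower in the knockdown, and the whole list took 0.0147% and 0.00342% of the counts. Of 11 colon epithelium markers 6 were expressed: CDX2 was 2.18-fold lower by CPM, EPCAM 1.25-fold higher, and KRT8, KRT18, KRT19 and CDH1 lay between them. The whole list, mostly the 3 keratins, took 1.4% of the control and 1.37% of the knockdown counts. Of 6 blood markers CD68 alone was expressed, at 4.16 and 2.98 FPKM. HCT116 is a single cell line, and these marker lists do not show that such cells were present in the cultures. The source of the heart muscle RNA is not given by the labels and was not tested. In bulk RNA, fewer cells of a type and less RNA per cell cannot be told apart.

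Levels are given as fragments scaled to gene length and to the library total (FPKM), as deposited, and as counts. A gene is called expressed below when it reached 1 FPKM in the higher library, which 8957 genes did. Of the 37 SR protein and hnRNP genes, 34 had a count and 25 were expressed, 9 SR protein genes and 16 hnRNP genes. The 9 counted genes under 1 FPKM were SRSF10, SRSF11, SRSF12, HNRNPA3, HNRNPDL, HNRNPH3, HNRNPLL, HNRNPA1L2 and HNRNPCL1. HNRNPCL2, HNRNPCL3 and HNRNPCL4, copies of the C group on chromosome 1, had 0 counts in both libraries.

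None of the 25 expressed genes differed by 2-fold between the libraries on the log2(FPKM + 1) scale, in either direction. Over all expressed genes, 6.2% were at least 2-fold lower in the knockdown and 2.53% at least 2-fold higher, 8.73% in all. At 1.5-fold, 3 of the 25 were lower, SRSF6, HNRNPL and HNRNPUL2, and 0 were higher, beside 18.2% and 8.45% of all expressed genes. The pseudocount of 1 shrinks the differences of weakly expressed genes, so ratios of counts scaled to the library totals (CPM) are given beside it.

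The SR protein genes had lower ratios than the hnRNP genes as a group, an order that held at the minimum of 1 FPKM and turned at a minimum of 5 FPKM, where the medians were -0.36 and -0.46. Their median log2 ratio of knockdown to control was -0.32 (range -0.82 to 0.39, 9 genes), that of the hnRNP genes was -0.13 (range -0.91 to 0.55, 16 genes), and that of all expressed genes was -0.15 (quartiles -0.47 and 0.19). Of the expressed SR protein genes, 8 of 9 were below the median of all expressed genes, against 7 of 16 hnRNP genes and, by construction, 50% of all genes. The interval of the CPM ratio lay wholly below 1 for 8 of 9 SR protein genes and 9 of 16 hnRNP genes, where 50.7% of all expressed genes did so. It lay wholly above 1 for SRSF4 and for 4 hnRNP genes, HNRNPA2B1, HNRNPD, HNRNPH1 and HNRNPU, where 28.4% of all expressed genes did so.

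Summed counts gave the same order. The 12 SR protein genes together had 14766 control and 10414 knockdown counts, 0.0556% and 0.0402% of the library, a 1.38-fold lower share (interval 1.35 to 1.42). The 25 hnRNP genes had 41783 and 32637 counts, 0.157% and 0.126%, a 1.25-fold lower share (interval 1.23 to 1.27). As shares of protein-coding counts alone, which leaves out the small RNAs, the sums were 1.24-fold and 1.12-fold lower. HNRNPL alone supplied 15071 of the hnRNP counts in the control.

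**Figure D1:**
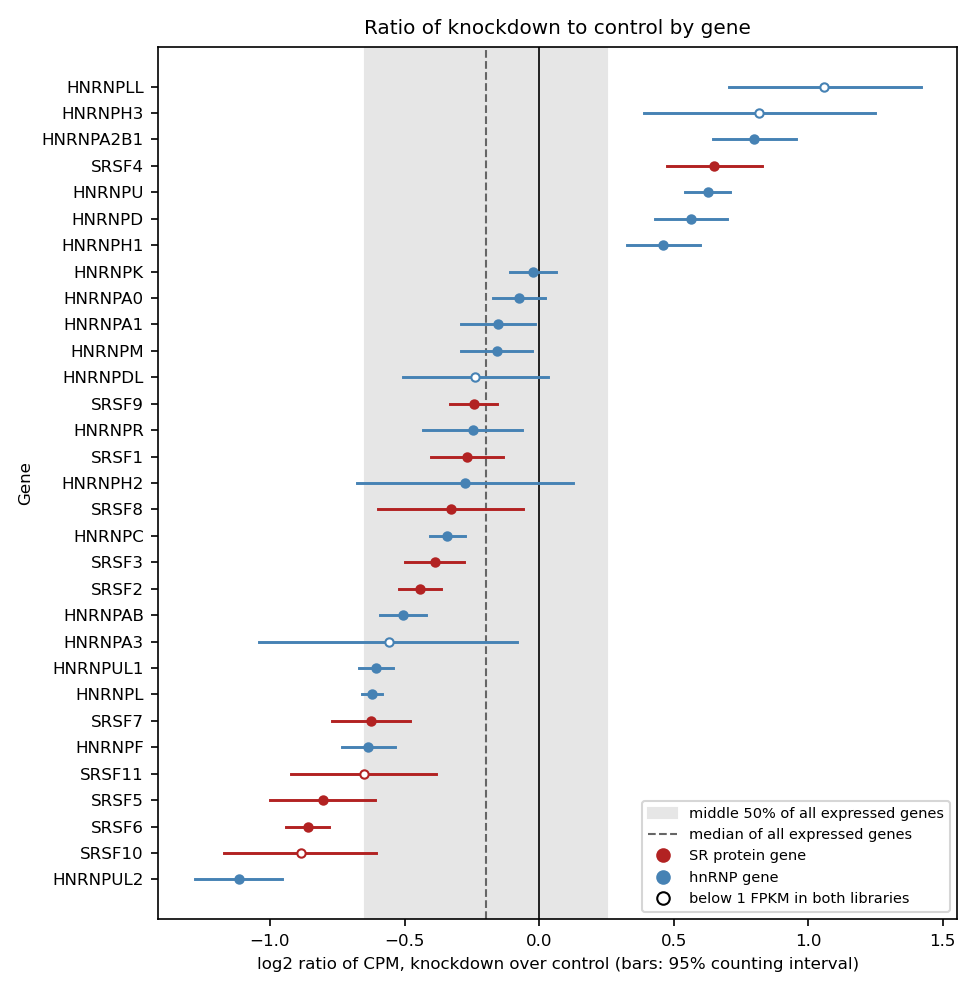
The horizontal axis is the log2 CPM ratio of knockdown to control for the 31 genes of at least 50 counts, with bars for the 95% exact interval of counting error, open points for genes below 1 FPKM, and a grey band and dashed line for the middle 50% and the median of all expressed genes. HNRNPUL2 is the lowest of the expressed genes at 2.17-fold lower and HNRNPA2B1 the highest at 1.74-fold higher, and 5 expressed genes have intervals wholly to the right of 0.

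Sequence upstream of the start was read from RefSeq (build GRCh38.p14), which held 46 windows of 250 bases for 32 of the 34 counted genes, with none for HNRNPA1 and SRSF2. The windows below are those of the expressed genes with the 2 lowest and 2 highest log2(FPKM + 1) ratios, among genes with 1 window holding at most 30 bases of their own exons. HNRNPA2B1, HNRNPD, SRSF4, HNRNPH1 and HNRNPK did not meet that condition. HNRNPA0, shown in their place, had a ratio of -0.07 and was not higher in the knockdown. They run 5′ to 3′ toward the start, and capitals mark CCAAT and GGGCGG on either strand (ATTGG and CCGCCC when read on the other). HNRNPUL2 lies at chr11:62727458-62727707 on the minus strand, SRSF6 at chr20:43457646-43457895 on the plus strand, HNRNPU at chr1:244864544-244864793 on the minus strand and HNRNPA0 at chr5:137754364-137754613 on the minus strand.
HNRNPUL2: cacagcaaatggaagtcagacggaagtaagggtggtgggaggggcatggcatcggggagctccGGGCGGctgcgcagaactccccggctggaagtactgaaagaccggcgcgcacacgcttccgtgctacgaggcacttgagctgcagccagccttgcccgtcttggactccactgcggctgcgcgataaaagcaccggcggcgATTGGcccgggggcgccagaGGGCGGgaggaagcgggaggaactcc
SRSF6: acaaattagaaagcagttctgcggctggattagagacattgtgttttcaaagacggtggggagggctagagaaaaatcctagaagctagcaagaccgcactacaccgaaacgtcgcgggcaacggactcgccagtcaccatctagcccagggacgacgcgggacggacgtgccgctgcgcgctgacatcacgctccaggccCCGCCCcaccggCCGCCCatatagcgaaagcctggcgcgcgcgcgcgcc
HNRNPU: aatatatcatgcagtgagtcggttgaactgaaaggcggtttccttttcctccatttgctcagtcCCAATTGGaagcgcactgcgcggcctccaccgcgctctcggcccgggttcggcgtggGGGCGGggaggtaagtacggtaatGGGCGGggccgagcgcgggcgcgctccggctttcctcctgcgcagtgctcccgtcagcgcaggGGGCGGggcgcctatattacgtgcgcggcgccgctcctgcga
HNRNPA0: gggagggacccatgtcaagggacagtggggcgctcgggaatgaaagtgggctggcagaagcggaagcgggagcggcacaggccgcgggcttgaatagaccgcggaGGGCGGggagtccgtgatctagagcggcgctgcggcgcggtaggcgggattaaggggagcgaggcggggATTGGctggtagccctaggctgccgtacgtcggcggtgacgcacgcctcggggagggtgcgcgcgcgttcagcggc

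CCAAT is the core of the NF-Y element and GGGCGG that of the Sp1 element, both common near human start sites. HNRNPUL2, HNRNPU and HNRNPA0 each held both motifs, while SRSF6 held 2 GGGCGG and 0 CCAAT. In HNRNPU a CCAAT and an ATTGG overlap in a single palindrome. CCAAT was present in 22 of 46 windows (47.8%), beside 32.0% of 35116 windows of all genes, and GGGCGG in 27 (58.7%), beside 42.6%. By gene these were 19 and 21 of 32, since a gene with several windows is counted more than once among windows. The share by gene over all genes was not computed, so these counts cannot be set beside the shares of windows. Some windows lie within exons of the same gene, with all 250 bases exonic in windows of HNRNPL, SRSF5, HNRNPH1 and HNRNPA2B1. CACGTG, the E-box, was present in 7 (15.2%, all genes 6.34%) and TATAAA in 6 (13.0%, all genes 10.7%). These matches describe letters in a window and were not tied to the ratios.

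Among the SR protein genes, SRSF6 was both the highest in level as deposited and the lowest in log2(FPKM + 1) ratio. SRSF6, on chromosome 20 (43457928 to 43464247, plus strand), encodes an SR protein with a second, degenerate RNA recognition motif. Its FPKM was 26.7 in the control and 14.7 in the knockdown, from 3702 and 1990 counts, a log2 ratio of -0.82. By CPM it was 1.81-fold lower (interval 1.72 to 1.92), and the 2 libraries were far apart next to the counting error.

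SRSF4 and SRSF5 share that layout of motifs with SRSF6, and the 3 genes did not go the same way. SRSF5 was at 1.34 FPKM in the control and 0.766 in the knockdown (605 and 338 counts), 1.75-fold lower by CPM (interval 1.53 to 2.0). SRSF4, on chromosome 1 (29147743 to 29181987, minus strand), was at 1.20 and 1.88 FPKM (433 and 663 counts), 1.57-fold higher (interval 1.39 to 1.78). It was the one expressed SR protein gene that was higher in the knockdown, and the intervals of SRSF4 and SRSF5 lay on opposite sides of 1. Over all expressed genes, 50.7% had intervals wholly below 1 and 28.4% wholly above.

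SRSF3 and SRSF7, small SR proteins that also work as adaptors for export of mRNA, were both lower in the knockdown. SRSF7 was at 3.72 and 2.41 FPKM (996 and 630 counts), 1.54-fold lower (interval 1.39 to 1.71). SRSF3 was at 5.04 and 3.85 FPKM (1612 and 1202 counts), 1.31-fold lower (interval 1.21 to 1.41).

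SRSF1, the SR protein first purified as a splicing factor, and SRSF9, the family member closest to it, differed less. SRSF1 was at 4.34 FPKM in the control and 3.6 in the knockdown (1020 and 826 counts), 1.20-fold lower by CPM (interval 1.10 to 1.32). SRSF9 was at 14.1 and 11.9 FPKM (2369 and 1952 counts), 1.18-fold lower (interval 1.11 to 1.26). Their log2 ratios, -0.21 and -0.23, were close to the median of all expressed genes, and both turned slightly positive when the libraries were scaled to their upper quartile.

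SRSF2 is found in nuclear speckles, and SRSF8 is an intronless gene that arose from a copied SRSF2 transcript. SRSF2 was at 10.4 and 7.62 FPKM (3153 and 2261 counts), 1.36-fold lower (interval 1.29 to 1.44). SRSF8 was at 2.47 and 1.97 FPKM (264 and 205 counts), 1.26-fold lower (interval 1.04 to 1.51), so the intervals of the parent and the copy overlap.

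The remaining SR protein genes were scarce. SRSF10, which represses splicing when dephosphorylated, was at 0.595 and 0.322 FPKM (303 and 160 counts), 1.85-fold lower by CPM (interval 1.52 to 2.25). SRSF11 was at 0.605 and 0.385 FPKM (301 and 187 counts), 1.57-fold lower (interval 1.30 to 1.89). SRSF12 had 8 control counts and none in the knockdown, at least 2.6-fold lower against a floor of 3 counts per library, though the exact interval reaches 1.66-fold. All 3 pointed the same way as the 8 expressed SR protein genes that were lower.

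**Figure D2:**
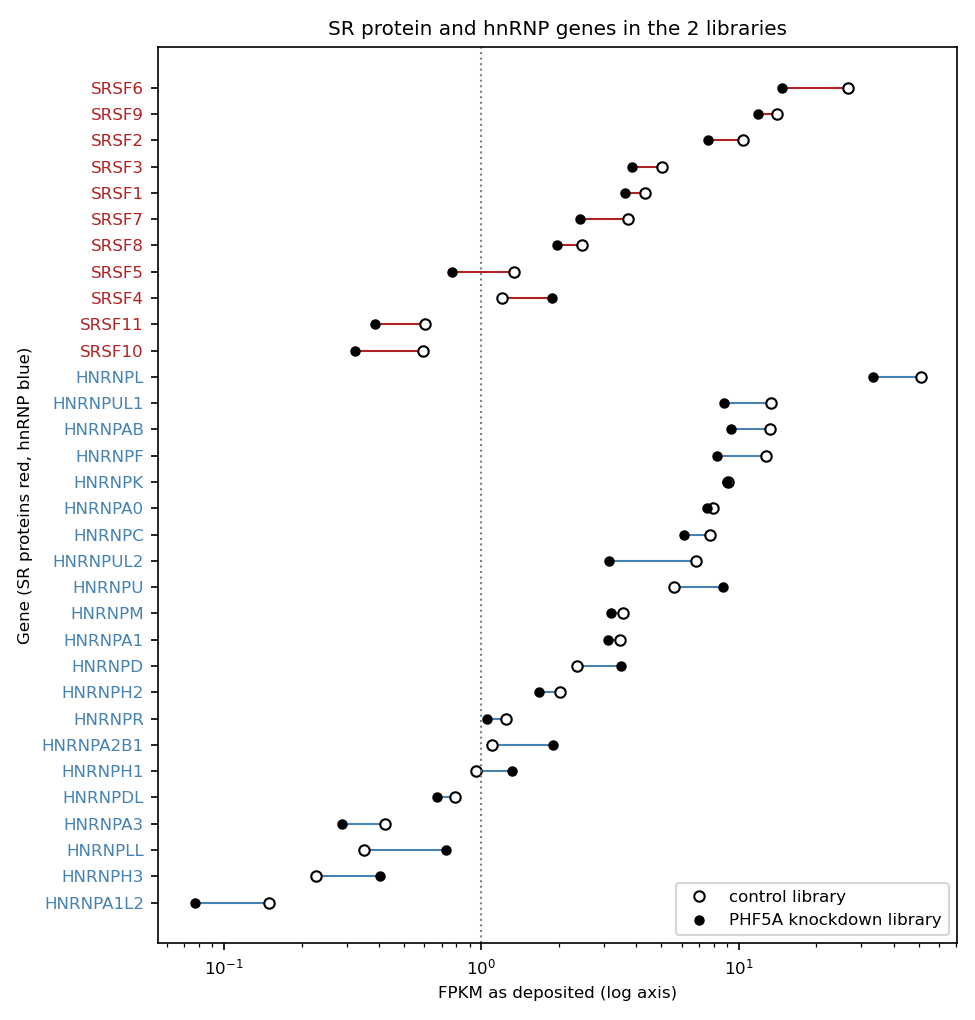
Points give the deposited FPKM (log axis) of each gene counted in both libraries, open for the control and filled for the knockdown, and the dotted line marks 1 FPKM. HNRNPL stands highest in both, at 51.0 and 33.1 FPKM, SRSF6 is next in the control at 26.7, and the libraries lie close together for HNRNPK and HNRNPA0.

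The hnRNP A/B and D group, whose members carry paired RNA recognition motifs, held ratios on both sides of 1. HNRNPAB was at 13.2 FPKM in the control and 9.31 in the knockdown (2658 and 1827 counts), 1.42-fold lower by CPM (interval 1.34 to 1.51). HNRNPA2B1, on chromosome 7 (26189927 to 26201529, minus strand) and the source of the A2 and B1 isoforms, was at 1.10 and 1.91 FPKM (544 and 923 counts), 1.74-fold higher (interval 1.56 to 1.94). HNRNPD, also called AUF1 and known for binding AU-rich elements of unstable mRNAs, was at 2.35 and 3.48 FPKM (780 and 1125 counts), 1.48-fold higher (interval 1.35 to 1.62). HNRNPA2B1 and HNRNPD were higher in the knockdown while HNRNPAB was lower, and their counting intervals lay on opposite sides of 1. Such intervals were common, wholly below 1 for 50.7% of all expressed genes and wholly above for 28.4%.

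HNRNPA1, the best studied splicing repressor of the family, was nearly level. It was at 3.46 and 3.11 FPKM (924 and 810 counts), 1.11-fold lower (interval 1.01 to 1.22). HNRNPA0, an intronless gene, was at 7.96 and 7.56 FPKM (1844 and 1708 counts), a ratio of 0.950 (interval 0.889 to 1.01) that holds 1. HNRNPDL, a close relative of HNRNPD, stayed under 1 FPKM with 255 and 211 counts, a ratio of 0.848 (interval 0.704 to 1.02). HNRNPA3, a close relative of HNRNPA1 and HNRNPA2B1, had 95 and 63 counts, that is 0.680 by CPM (interval 0.486 to 0.945), and the intronless copy HNRNPA1L2 had 12 and 6. For HNRNPA0 and HNRNPDL no difference was detectable at this depth.

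HNRNPC binds runs of uridine and keeps cryptic exons out of transcripts. It was at 7.75 FPKM in the control and 6.12 in the knockdown (4435 and 3416 counts), 1.27-fold lower by CPM (interval 1.21 to 1.32). Of the 4 copies named HNRNPCL, HNRNPCL1 had 0 counts and 1 count.

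The F/H group, which binds runs of guanine, was split. HNRNPF was at 12.8 and 8.23 FPKM (2172 and 1364 counts), 1.55-fold lower (interval 1.45 to 1.66). HNRNPH1, its relative on chromosome 5, was at 0.954 and 1.31 FPKM (777 and 1043 counts), 1.38-fold higher (interval 1.25 to 1.51). HNRNPH3 was at 0.229 and 0.402 FPKM (74 and 127 counts), 1.76-fold higher (interval 1.31 to 2.38). HNRNPH2, on the X chromosome, was at 2.02 and 1.67 FPKM (119 and 96 counts), a ratio of 0.827 with an interval of 0.625 to 1.09 that holds 1. HNRNPF therefore lay below 1 and HNRNPH1 and HNRNPH3 above it, each beyond counting error, as did most expressed genes on 1 side or the other (50.7% below, 28.4% above).

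HNRNPL binds CA repeats and was the most abundant gene of both families on every scale used. HNRNPL, on chromosome 19 (38836388 to 38852347, minus strand), was at 51.0 FPKM in the control and 33.1 in the knockdown (15071 and 9549 counts), 1.54-fold lower by CPM (interval 1.5 to 1.58). Its paralogue HNRNPLL, known for regulating CD45 exons in lymphocytes, went the other way, from 0.351 to 0.730 FPKM (100 and 203 counts), 2.08-fold higher (interval 1.63 to 2.67). In the control HNRNPL had 15071 counts against 100 for HNRNPLL.

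HNRNPK, a KH-domain protein that binds runs of cytosine, was the most even of the expressed genes. It was at 9.12 and 8.98 FPKM (2271 and 2182 counts), a ratio of 0.985 (interval 0.928 to 1.05). HNRNPM was at 3.55 and 3.18 FPKM (985 and 861 counts), 1.12-fold lower, and HNRNPR at 1.24 and 1.05 FPKM (550 and 452 counts), 1.19-fold lower. Both log2 ratios, -0.12 and -0.13, were slightly above the median of all expressed genes.

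The U group, proteins with a SAP domain that bind chromatin as well as RNA, held the lowest and the highest log2(FPKM + 1) ratio of all 25 expressed genes, though HNRNPA2B1 was above HNRNPU by CPM. HNRNPUL2, on chromosome 11 (62712630 to 62727349, minus strand), was at 6.8 FPKM in the control and 3.14 in the knockdown (1002 and 451 counts). Its log2(FPKM + 1) ratio was -0.91, and by CPM it was 2.17-fold lower (interval 1.94 to 2.43). HNRNPU, on chromosome 1 (244851166 to 244864542, minus strand) and also known as scaffold attachment factor A, was at 5.61 and 8.66 FPKM (1922 and 2894 counts). Its log2 ratio was 0.55, and by CPM it was 1.54-fold higher (interval 1.46 to 1.64). HNRNPUL1 was at 13.4 and 8.80 FPKM (5193 and 3325 counts), 1.52-fold lower (interval 1.46 to 1.59), so the gene closest in name to HNRNPUL2 shared its direction and HNRNPU did not.

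Scaling moved the median of all expressed genes from -0.15 as deposited to 0.09 with upper-quartile scaling, -0.01 with the small RNAs left out of the totals and -0.47 after rescaling FPKM to a fixed sum (TPM). The SR protein median stayed below that of all genes in each of these and in the other settings run, by 0.17 to 0.22. The hnRNP median differed from it by -0.03, -0.01 and 0.02 under those 3 scalings, by -0.07 with no minimum and by -0.33 among genes of at least 5 FPKM. Of the 25 expressed genes, 12 had log2 ratios below 0 in every setting (HNRNPAB, HNRNPC, HNRNPF, HNRNPL, HNRNPUL1, HNRNPUL2, SRSF2, SRSF3, SRSF5, SRSF6, SRSF7 and SRSF8). With upper-quartile scaling, SRSF8 (-0.04), HNRNPC (-0.06) and SRSF3 (-0.09) among these 12 lay near 0. The 5 genes HNRNPA2B1, HNRNPD, HNRNPH1, HNRNPU and SRSF4 were above 0 in every setting. As TPM, however, HNRNPH1 (0.02), HNRNPD (0.11) and SRSF4 (0.14) lay near 0. The other 8, HNRNPA0, HNRNPA1, HNRNPH2, HNRNPK, HNRNPM, HNRNPR, SRSF1 and SRSF9, changed sign with the scaling. The share of all expressed genes that kept their sign across these settings is not given here.

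The deposited FPKM understates the level of genes with many annotated exons. For 92.8% of 14635 genes (at least 20 counts, same locus in GENCODE 29), the length implied by count and FPKM equalled, within 1%, the sum of all distinct annotated exons, with overlapping exons counted repeatedly. It equalled the non-overlapping exon length for 15.4%. The implied length was 1.48 times the non-overlapping length in the median expressed gene and 1.89 times in the median of the 34 counted SR protein and hnRNP genes, from 1.0 to 3.80. SRSF2 was at the top with 3.80, followed by HNRNPAB with 3.53, HNRNPH1 with 3.24 and SRSF5 with 3.18. The annotated locus of HNRNPAB, HNRNPU, HNRNPUL2, HNRNPA2B1, HNRNPA1L2 and HNRNPCL1 differs between the table and GENCODE 29, so their lengths and ranks on this scale are less certain.

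On non-overlapping length the order of levels changed, while the FPKM ratio between the libraries for a gene did not, since both are divided by 1 length. The log2(FPKM + 1) ratio did move, because the pseudocount weighs less at a higher level. At 1.5-fold, 5 of 29 genes were then lower, HNRNPF and SRSF5 with HNRNPL, HNRNPUL2 and SRSF6, and HNRNPA2B1 was higher, beside 20.1% and 8.64% of 10261 genes that reached 1 FPKM on this length. HNRNPL remained highest with 83.2 FPKM in the control. HNRNPAB moved from rank 5 to rank 2 with 46.7 FPKM, SRSF2 from rank 7 to rank 3 with 39.4, and SRSF6 from rank 2 to rank 4 with 30.4. HNRNPUL1, at 29.9 FPKM, came next to SRSF6. On this scale 29 of the genes reached 1 FPKM, with HNRNPLL, HNRNPDL, SRSF10 and SRSF11 added. HNRNPH1 stood at 3.09 FPKM in the control and 4.25 in the knockdown in place of 0.954 and 1.31.

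**Figure D3:**
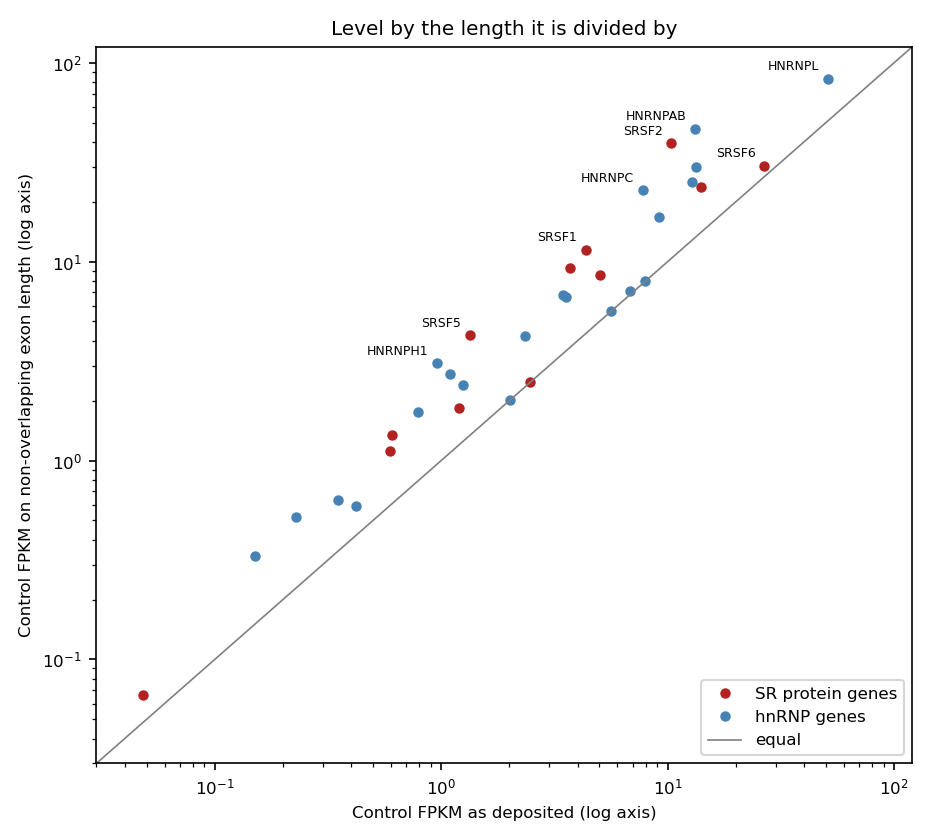
Each point is a counted gene, with its control FPKM as deposited on the horizontal axis and on non-overlapping exon length on the vertical axis (both log axes), and the line marks equal values. HNRNPAB, SRSF2 and HNRNPC lie well above the line, and HNRNPA0 and HNRNPH2, with 1 annotated transcript each, lie on it.

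Several of these genes have processed pseudogenes, nearly identical copies without introns, and no label or header says how reads matching several places were counted. The table held 127 such entries for 17 of the genes, of which 32 were counted, with 2681 control and 2487 knockdown counts. HNRNPA1 had 75 entries, 14 of them counted, with 1136 control counts and 1311 knockdown counts, which was 55.1% and 61.8% of the gene and its copies together. HNRNPA1P7 took 777 and 828 of these counts and HNRNPA1P48 took 299 and 440. Added to its copies HNRNPA1 came to 2060 and 2121 counts, for a ratio of 1.06 (interval 0.993 to 1.12) in place of 0.899 alone, so its direction is uncertain.

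HNRNPA3 is uncertain in size. Its 4 counted copies, chiefly HNRNPA3P6 with 98 and 32 counts, held 52.7% of the sum in the control and 35.1% in the knockdown. The ratio of the sum was 0.495 (interval 0.384 to 0.634), lower than the 0.680 of the gene alone. For HNRNPC, HNRNPK and HNRNPL the copies held at most 8.82% of the sum in either library. The ratio of HNRNPL with HNRNPLP2 (971 and 732 counts) and HNRNPLP1 was 0.657.

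**Figure D4:**
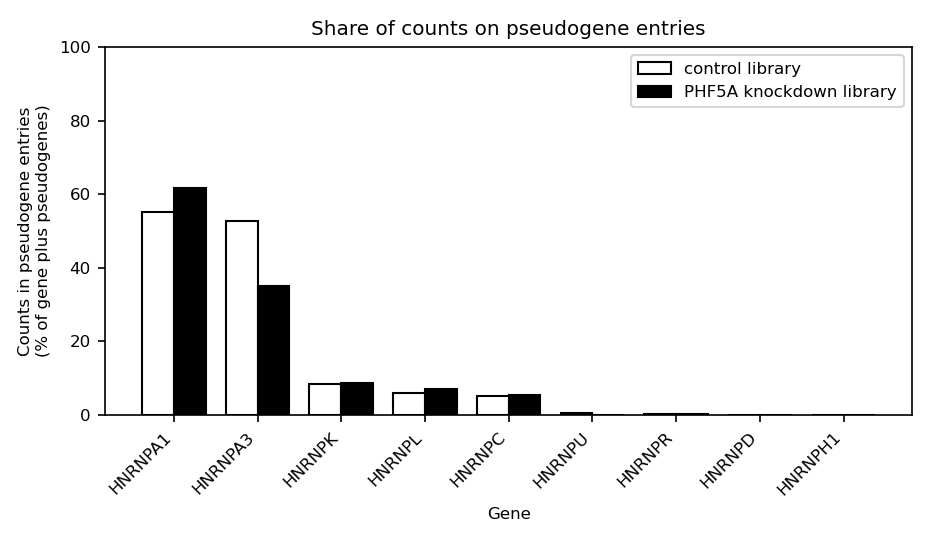
Bars give the counts on pseudogene entries as a percentage of gene plus pseudogenes, open for the control library and filled for the knockdown library, for the 9 genes with counted entries. In HNRNPA1 the copies hold more counts than the gene in both libraries, and in HNRNPA3 they do so in the control alone.

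Of the 34 counted genes, 15 have a locus that overlaps the locus of another counted gene entry, mostly on the opposite strand. Only the start and end of each locus were compared, so whether exons are shared was not examined. The library kit keeps strand, but whether counting used it is not stated in the labels or file headers. Where exons are shared, reads may be split or lost. PHYKPL, opposite HNRNPAB, had 740 and 220 counts, 3.28-fold lower in the knockdown beside the 1.42-fold of HNRNPAB. MFSD11, opposite SRSF2, had 455 and 228 counts, 1.95-fold lower beside the 1.36-fold of SRSF2. CBX3, opposite HNRNPA2B1, had 406 and 327 counts and so went against its neighbour. ELAVL1, listed opposite HNRNPM, had 2380 and 2641 counts, while the log2 ratio of HNRNPM changed sign with the scaling (-0.46 to 0.09). HNRNPH3 shares ground with RUFY2 (66 and 34 counts) and PBLD (35 and 34), which are not small beside its own 74 and 127. A read-through entry joining RPL36A and HNRNPH2 had 41 and 10 counts next to the 119 and 96 of HNRNPH2.

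The SR protein and hnRNP genes also share features that the choice by symbol did not use. In GENCODE 29, 25 of the 34 counted genes have an annotated NMD transcript, beside 41.1% of expressed protein-coding genes, and 23 of 34 have a retained-intron transcript, beside 57.8%. The median number of annotated transcripts was 10.5, beside 7, with the highest, 50, in HNRNPH1. The 34 include genes under 1 FPKM, while the comparison genes all reached it. The sets were not matched for the number of transcripts. SRSF7 had 6 annotated NMD transcripts. Gene-level counts do not separate these transcripts from the coding ones, so exon inclusion and intron retention were not measured here.

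Their transcripts were poorer in GC than most. Over the 31 genes with at least 50 counts the median GC content was 44.1% (39.6% to 56.0%), beside 54.5% for 7677 expressed protein-coding genes. The 6 genes of at least 50% GC, HNRNPAB, HNRNPL, HNRNPM, HNRNPUL1, HNRNPUL2 and SRSF2, had a median control level of 34.6 FPKM on non-overlapping length (6.61 to 83.2). The 25 others had a median of 4.21 FPKM (0.519 to 30.4). All 6 of the GC-rich genes had a CPM ratio below 1, as did 18 of the 25 others, while the 7 above 1 were all in the GC-poor set. Most genes lay on that side, since 5552 of 8957 expressed genes had a log2 ratio below 0. The 6 include HNRNPM, whose log2 ratio changed sign with the scaling. Spearman's rho between control level and GC content was 0.65 across the 31 genes and 0.44 across 7622 expressed protein-coding genes. Between log2 CPM ratio and GC content it was -0.25 and 0.10. These are correlations across genes that share 1 library pair, given as a description.

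**Figure D5:**
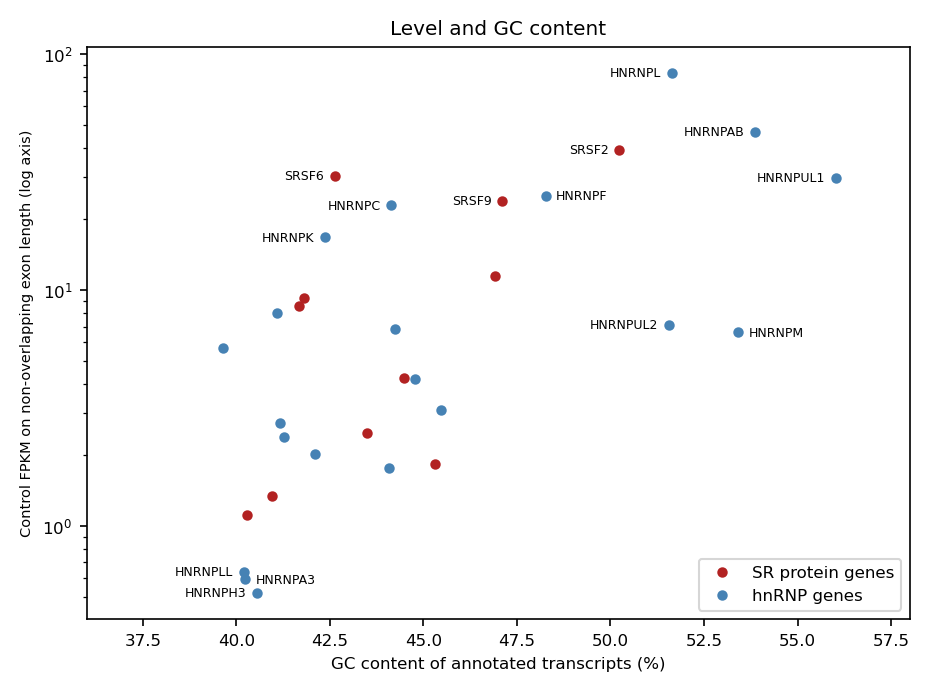
Points are the 31 genes of at least 50 counts, with GC content of annotated transcripts (%) on the horizontal axis and control FPKM on non-overlapping length (log axis) on the vertical axis. The genes above 50% GC include HNRNPL, HNRNPAB and SRSF2, the highest 3 in level, and the lowest 3 genes, HNRNPLL, HNRNPA3 and HNRNPH3, lie near 40% GC.

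Related proteins outside the SRSF and HNRNP symbols were described from lists. SR-related proteins have arginine and serine repeats without the SRSF layout, and 16 of 27 were expressed. On the log2(FPKM + 1) scale none of the 16 differed by 2-fold, beside 8.73% of all expressed genes. Of the 16, 11 had ratios above 0 and 5 below, where 5552 of 8957 expressed genes were below 0. Their median was 0.16, so at the minimum of 1 FPKM they did not share the side of the SR protein genes. With no minimum, 15 of the 27 were above 0 and 12 below. Their median was then 0.006, only 0.05 above that of all genes. As TPM their median was -0.21, but that of all expressed genes was -0.47, so theirs was still 0.26 above it. LUC7L2, a U1-associated factor, had 86 control and 362 knockdown counts (0.241 and 1.04 FPKM). Its CPM ratio was 4.32 (interval 3.40 to 5.53), a difference that the pseudocount of 1 FPKM reduced to a log2 ratio of 0.72. PNN, which sits at the periphery of the exon junction complex, had 137 and 263 counts, 1.97-fold higher. RNPS1, also found there, and SFSWAP had log2 ratios of -0.40 each.

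SR proteins are phosphorylated by the SRPK and CLK kinases, dephosphorylated by protein phosphatase 1 and carried into the nucleus by transportin-SR. Of 14 such genes 7 were expressed, and 0 differed by 2-fold, beside 8.73% of all expressed genes. Among the 7, 5 were below and 2 above 0, where 5552 of 8957 expressed genes were below 0. Their median of -0.13 became 0.14 with upper-quartile scaling, where 6 were expressed. That scaling also moved the median of all expressed genes, from -0.15 to 0.09. PPP1CB, a catalytic subunit of the phosphatase, had a log2 ratio of -0.53. CLK2 was at -0.18 and TNPO3, the import receptor, at 0.16.

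Proteins counted among the hnRNPs under other names lay close to the background. Of 22 entries (21 symbols), 19 were expressed, 13 below 0 and 6 above, where 5552 of 8957 expressed genes were below 0. Their median was -0.22, beside -0.15 for all expressed genes. On the log2(FPKM + 1) scale 0 were past 2-fold, 3 were at least 1.5-fold lower and 0 at least 1.5-fold higher, beside 18.2% and 8.45% of all expressed genes. RBMX, known as hnRNP G, was at -0.80 on that scale and 2.33-fold lower by CPM, and KHSRP, which binds AU-rich elements, was at -0.71. EWSR1, an RNA-binding protein of the nucleus, was at -0.55. Highest of the 6 above 0 were CIRBP at 0.30, RALY at 0.24 and PCBP4 at 0.19.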

How the data were processed

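RNA from HCT116 cells (Trizol extraction) went into stranded TruSeq total RNA libraries, per the labels' protocols. HISAT2 2.0.4 and Cuffdiff were used with GRCh38 (hg38), per the submitters' processing notes. Which annotation release and strand setting were used, and how multi-mapped reads were counted, is not stated in any label or header used here. The deposited table holds 1 whole-number count and 1 FPKM value per gene and library, per the file headers. Of its 50869 lines, 2 that hold 1 broken entry were left out.

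The FPKM as deposited, on the log2(FPKM + 1) scale, was the main measure, for genes reaching 1 FPKM in either library. With 1 library per group no test was run. Genes were called by fold, and CPM ratios were computed from counts and library totals with 95% exact conditional binomial intervals. PCR duplicates cannot be recognised in these counts, so intervals cover counting error only. Alternatives were other pseudocounts, minimums, scalings, a 1.5-fold call and sums with pseudogenes. The non-overlapping exon length was added after the data were seen. Every counted SR protein and hnRNP gene is named, and from each other list the 2 to 4 expressed genes with the largest absolute log2 ratio. For 1 gene that this rule names, the result is not reported here. The genes and lists were chosen with earlier results of these data known. Positions are those of the deposited table. Lengths, transcripts and GC content came from GENCODE 29, which matched 50110 entries by identifier, and upstream sequence from RefSeq (GRCh38.p14). Python 3.11.15, pandas 2.3.3, scipy 1.17.1 and matplotlib 3.10.9 were used, and the scripts were tested on simulated data.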

Additional observations from a re-analysis of the deposited data

How the results depend on the processing

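No paired analysis was possible because each condition had a single library. The count of SR protein and hnRNP genes at least 2-fold lower, 0 as reported, was 1 (HNRNPUL2) with a pseudocount of 0.1 or 0.5 FPKM or with CPM and a prior of 0.5, 3 of 26 (HNRNPL, HNRNPUL2 and SRSF6) as TPM, and 3 with a 1.5-fold call. The share of all expressed genes moved with it, from 6.2% to 12.6%, 9.21%, 13.8%, 14.5% and 18.2% in that order. The count at least 2-fold higher was 0 in every setting run. HNRNPLL, 2.08-fold higher by CPM, was under 1 FPKM and so not among the genes of the CPM setting. With no minimum, the pseudocount of 1 reduced its log2 ratio to 0.36. The SR protein median of -0.32 became -0.17 when centred on all expressed genes, -0.090 with upper-quartile scaling and -0.65 as TPM. The hnRNP median of -0.13 became 0.021 when centred, 0.054 with upper-quartile scaling, -0.45 as TPM and -0.46 at a minimum of 5 FPKM. Of 263 alternative values for single genes, 174 stayed within the counting margin and 89 did not. Depth limits SRSF12, HNRNPA1L2 and HNRNPCL1, with at most 12 counts in either library, and intervals say nothing of the spread between cultures.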

Other observations

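Splicing regulators outside both families were described from a list of 24, of which 11 were expressed, 6 below 0 and 5 above, with a median log2 ratio of -0.00. Over all expressed genes, 5552 of 8957 were below 0 and 8.73% differed by 2-fold. RBM4, a regulator of exon choice that also acts in translation, was the single gene of this list past 2-fold. It had 2029 control and 4514 knockdown counts (7.81 and 17.8 FPKM), a log2 ratio of 1.09 and 2.28-fold higher by CPM (interval 2.16 to 2.4). RBM10, whose level in the control was 34.2 FPKM, was at 19.2 in the knockdown, a log2 ratio of -0.80. RBM5, a paralogue of RBM10, was at -0.50. ESRP2, an epithelial splicing regulator, was at 0.48.

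Of 9 genes for the import and arginine methylation of hnRNPs, 8 were expressed, 5 below 0 and 3 above, with 0 at 2-fold. Over all expressed genes, 5552 of 8957 were below 0 and 8.73% differed by 2-fold. The median of the 8 was -0.14 and became 0.054 with upper-quartile scaling. That scaling also moved the median of all expressed genes, from -0.15 to 0.09. PRMT1, the main asymmetric arginine methyltransferase, had 29749 control and 43839 knockdown counts, a log2 ratio of 0.59. PRMT5, the main symmetric one, was at -0.41 and its partner WDR77 at -0.78. TNPO2, an import receptor of hnRNP A1, was at -0.73.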
